A study of Homo sapiens with 4 samples.

Results

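Polycomb repressive complex 2 (PRC2) is the enzyme complex that methylates histone H3 at H3K27, a mark of silenced genes. Its 10 genes considered here were taken from a list of core and accessory subunits, and every probe annotated to them was used, 16 of the 47323 probes on the array. EZH2, a PRC2 enzyme, has been reported as a target of the transcription factor SOX4, a report made in mouse mammary cells, and for that reason the complex is of interest after SOX4 knockdown. The arrays measured total RNA of MDA-LM2 cells, a lung-metastatic subline of MDA-MB-231, a human breast cancer cell line. The siSOX4 group (2 samples) was transfected with siRNA against SOX4 and the siControl group (2 samples) with control siRNA, both by lipofection, and RNA was taken after 48 h. The design text names a pair of SOX4 siRNAs, and whether the sample numbers stand for them is not stated. Separate cultures are not stated either, so the p-values measure only a spread that may be technical.

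PRC2 contains either EZH2 or EZH1 as its catalytic subunit, SUZ12 as the scaffold, EED, which reads the methylated product and stimulates the enzyme, and the histone-binding proteins RBBP4 and RBBP7. Accessory subunits bind SUZ12 and define alternative forms of the complex, with JARID2 and AEBP2 in one form and MTF2 or PHF19, both Polycomb-like proteins, in the other. EZH2 and EED are induced by E2F factors in dividing cells, and EZH2 is often abundant in aggressive breast cancer.

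The promoter windows of 3 members are shown because the results below turn on EZH2 and JARID2 and because MTF2 was the only member whose window held both kinds of motif searched. The windows are from RefSeq (GRCh38.p14), 250 bases before to 50 bases after an annotated start, 5′ to 3′ on the strand of the gene. Capitals mark matches, on either strand, to a SOX-type motif (AACAAAG or its variant AACAATG) or to an E2F-type motif (TTCCCGC or its variants TTGGCGC and likewise TTCGCGC).
EZH2, chr7:148884242-148884541, - strand: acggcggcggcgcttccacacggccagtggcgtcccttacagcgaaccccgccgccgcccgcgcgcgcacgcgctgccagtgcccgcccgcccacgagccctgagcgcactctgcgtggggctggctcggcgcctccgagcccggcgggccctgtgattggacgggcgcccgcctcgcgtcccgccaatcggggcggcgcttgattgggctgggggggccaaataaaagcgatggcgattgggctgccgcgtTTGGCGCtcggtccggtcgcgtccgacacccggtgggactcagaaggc
JARID2, chr6:15245819-15246118, + strand: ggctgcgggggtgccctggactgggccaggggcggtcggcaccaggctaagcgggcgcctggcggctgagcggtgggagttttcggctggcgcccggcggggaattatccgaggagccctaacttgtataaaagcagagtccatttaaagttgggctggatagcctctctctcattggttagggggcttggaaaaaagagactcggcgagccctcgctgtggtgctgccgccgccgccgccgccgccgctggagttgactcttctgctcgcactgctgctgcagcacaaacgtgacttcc
MTF2, chr1:93079033-93079332, + strand: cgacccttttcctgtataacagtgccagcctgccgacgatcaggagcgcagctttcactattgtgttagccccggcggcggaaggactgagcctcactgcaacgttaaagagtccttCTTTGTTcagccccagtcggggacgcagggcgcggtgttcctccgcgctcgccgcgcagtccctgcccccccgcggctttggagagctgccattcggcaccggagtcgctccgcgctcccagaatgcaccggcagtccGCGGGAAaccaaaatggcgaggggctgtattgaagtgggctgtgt
The table held 15 windows for the 10 members. An E2F-type match was found in 7 windows of 6 genes (EZH2, SUZ12, RBBP4, RBBP7, MTF2 and PHF19), and 11.0% of all 35116 windows in the table held one. The EZH2 match began at base 3 after the start. The 2 RBBP4 windows overlap and hold the same 2 matches, which overlap each other. The 11.0% is over windows of any G and C content, so the members were not shown to have more such matches. A SOX-type match was found in the MTF2 window, 133 bases before the start, and in 8.22% of all windows. Neither of the 2 EZH2 windows nor either of the 2 JARID2 windows held a SOX-type match, which says only that these letters are absent from these windows.

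Intensities were normalized to a log2 scale, and a probe was kept if 2 or more arrays gave it a detection p-value under 0.05, which left 20118. Detected probes numbered 19655 and 20292 on the siSOX4 arrays, against 18609 and 19346 on the siControl arrays. SOX4 itself, measured by 1 probe, gave raw intensities of 206 and 193 after siSOX4, against 253 and 239 after siControl, a log2 difference of -0.35 ± 0.19 (SE, n = 2 per group, limma adjusted p = 0.487). The SOX4 signal was thus 1.28-fold lower after siSOX4 but did not pass the test. Its 95% interval of -0.80 to 0.09 allows a change in either direction. Both siSOX4 samples lay below both controls, as they did for 23.3% of all kept probes, so the lack of overlap says little. The authors' deposited table gave a SOX4 ratio of 1.22 for siControl over siSOX4. The knockdown was therefore not established by these arrays. All 6 marker genes of MDA-MB-231 cells were detected on every array, and the luminal markers ESR1, PGR and CDH1 and the immune markers PTPRC and CD3E were detected on none. The luminal markers KRT19 and EPCAM and the immune markers CD68, CD14 and LYZ were also detected on every array, and GATA3 on 2 arrays. The summed raw intensity of the luminal markers was 1773 and 1903 in the siSOX4 samples, against 2026 and 1864 in the siControl samples, and that of the immune markers 2963 and 3506 against 3788 and 3313. The summed raw intensity of 6 endothelial and fibroblast markers was 885 and 941 in the siSOX4 samples, against 765 and 805 in the siControl samples, and CDH5 was detected on no array. Among these markers PDGFRB was detected on neither control array and passed the filter only through the siSOX4 arrays. PDGFRB was at least 1.73-fold higher in the siSOX4 samples (1.33-fold when background was not corrected). PECAM1 differed by 0.63 log2 units. COL1A1 differed by 0.45 with overlapping groups. A COL1A2 probe detected on neither siSOX4 array was at least 1.14-fold lower (1.07-fold when background was not corrected). ACTA2 and the other COL1A2 probe overlapped between groups. The part of this list in the results was not tested. Of the other marker genes, EGFR differed by -0.66 at its brightest probe and -0.07 at its other kept probe, and AXL by 0.36 and 0.35. LYZ differed by -0.25, and the EPCAM probes by -0.46, -0.23 and less than 0.01, all with overlapping groups.

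Of the 16 PRC2 probes, 15 were kept, and those 15 were detected on all 4 arrays. None passed an adjusted p under 0.05 in limma, where 0% of the 20118 kept probes passed. At an unadjusted p under 0.05 there were 4 of the 15 probes, against 13% of all kept probes. These were 2 probes of EZH2, higher, against 6.66% of all kept probes, and 1 each of JARID2 and RBBP4, lower, against 6.31%. The groups did not overlap in 11 of the 15 probes, against 45.5% of all kept probes. Both siSOX4 samples lay above both controls in 7 probes, against 22.2% of all kept probes, and below both controls in 4 probes, against 23.3%. The median log2 difference of the 15 probes was 0.26, beside -0.01 over all kept probes. Their log2 differences ranged from -1.12 to 0.69, with the limma adjusted p from 0.0968 to 0.99.

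**Figure D1:**
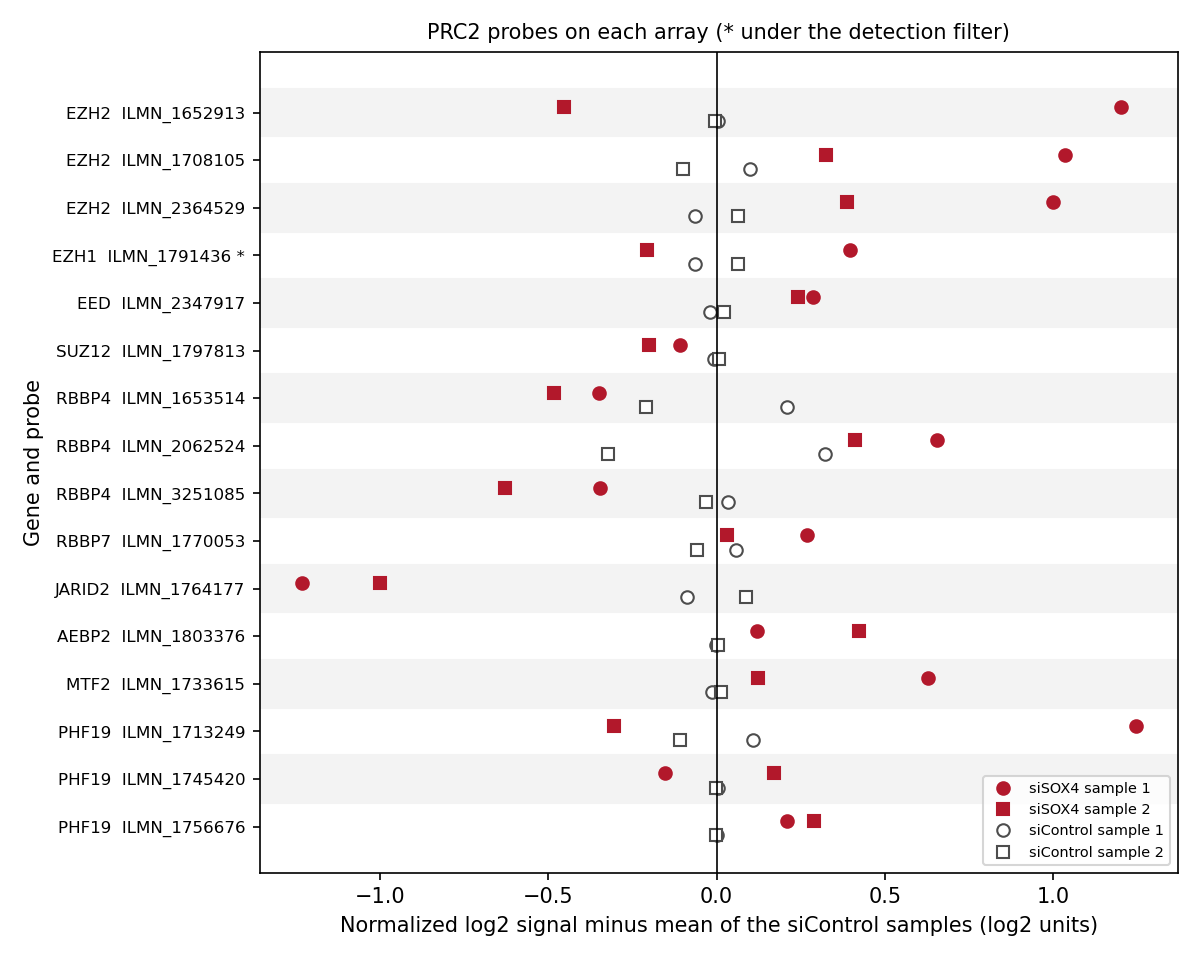
Normalized log2 signal of each PRC2 probe on each array, in log2 units relative to the mean of the siControl samples, with filled red points for siSOX4 samples 1 and 2 and open points for siControl samples 1 and 2. JARID2 lies at -1.233 and -1.0005 in the siSOX4 samples, while EZH2 ILMN_1652913 and PHF19 ILMN_1713249 lie far apart in the siSOX4 samples.

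EZH2, the catalytic subunit, had a higher signal in the siSOX4 samples by 2 of its 3 probes. Probe ILMN_1708105, annotated to NM_152998, read 9.16 and 8.45 log2 units in siSOX4 samples 1 and 2, against 8.23 and 8.03 in siControl samples 1 and 2. Both siSOX4 samples were above both controls, and sample 1 was farther above them. The log2 difference was 0.68 ± 0.25, or 1.60-fold, with a 95% interval from 0.10 to 1.26 (limma adjusted p = 0.327). Probe ILMN_2364529, annotated to the same transcript, read 8.58 and 7.97 in the siSOX4 samples, against 7.52 and 7.65 in the siControl samples. Again the groups did not overlap, and the difference was 0.69 ± 0.24, or 1.62-fold (limma adjusted p = 0.302). The differences of these 2 probes were not shown to differ (limma, difference of the differences -0.01 ± 0.18, with a 95% interval from -0.47 to 0.44, adjusted p = 0.993).

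The third EZH2 probe, ILMN_1652913, annotated to transcript NM_004456, read 6.78 and 5.13 in the siSOX4 samples, against 5.58 and 5.58 in the siControl samples. It was above both controls in siSOX4 sample 1 and below both in siSOX4 sample 2, so the groups overlapped. Its difference was 0.38 ± 0.46 (limma adjusted p = 0.78). Relative to the control mean, the 3 EZH2 probes were higher by 1.20, 1.03 and 1.00 in siSOX4 sample 1, and in siSOX4 sample 2 they differed by -0.45, 0.32 and 0.39. Without siSOX4 sample 1 the group differences are the sample 2 values, of which none passed, where 10.2% of all kept probes passed. Without sample 2 they are the sample 1 values, which passed for all 3 probes, where 21.0% of all kept probes passed. In both cases the group has 1 sample, which is assumed to vary as the controls do. In the authors' deposited table, which gives siControl over siSOX4, the EZH2 ratios were 0.667 for ILMN_1708105, 0.679 for ILMN_2364529 and 0.831 for ILMN_1652913.

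EZH1, the alternative catalytic subunit, which is known for its presence in non-dividing cells, was at background. Its raw intensities were 88.1 and 59.7 in the siSOX4 samples, against 71.6 and 73.5 in the siControl samples. The probe was detected on siSOX4 sample 1 alone, with a detection p-value of 0.0481, and was left out of the test, so no fold is given.

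The other core subunits differed by less. EED, the reader of the methylated product, had log2 signals of 8.86 and 8.82 in the siSOX4 samples, against 8.56 and 8.60 in the siControl samples. Both siSOX4 samples were above both controls by nearly the same amount, and the difference of 0.26 ± 0.17 did not pass (limma adjusted p = 0.55). SUZ12, the scaffold, read 11.96 and 11.87 in the siSOX4 samples, against 12.07 and 12.08 in the siControl samples. The siSOX4 samples were the lower ones, by -0.15 ± 0.13 (limma adjusted p = 0.649), and the 95% interval of -0.45 to 0.14 allows a change in either direction.

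RBBP4, a histone-binding subunit shared with other chromatin complexes, was measured by 3 probes that did not move together. Probe ILMN_3251085, annotated to NM_001135255, read 7.58 and 7.30 in the siSOX4 samples, against 7.96 and 7.89 in the siControl samples. The siSOX4 samples were the lower ones, and the difference was -0.49 ± 0.20 (limma adjusted p = 0.36). Probe ILMN_1653514, annotated to NM_005610, read 5.69 and 5.56 in the siSOX4 samples, against 6.25 and 5.83 in the siControl samples, a difference of -0.42 ± 0.23. Probe ILMN_2062524, annotated to the same NM_005610, went the other way, with 6.69 and 6.45 in the siSOX4 samples against 6.36 and 5.72 in the siControl samples. Its difference was 0.53 ± 0.26 (limma adjusted p = 0.445), and for both NM_005610 probes the controls were apart, by 0.42 for ILMN_1653514 and 0.64 for ILMN_2062524. Without siControl sample 2 the ILMN_2062524 difference was 0.21, and without siControl sample 1 it was 0.85. For ILMN_1653514 these values were -0.63 and -0.21.

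Whether probes of a gene differ was tested in limma over 4394 pairs of kept probes from 2913 genes, a test added after the values were seen. The NM_005610 probes of RBBP4 differed from each other by 0.95 ± 0.17 log2 units in their group differences (unadjusted p = 0.00172, adjusted p = 0.519), and ILMN_2062524 differed from ILMN_3251085 by 1.02 ± 0.23 (adjusted p = 0.519). None of the 9 pairs within EZH2, RBBP4 and PHF19 passed the adjusted threshold, where 0% of all pairs passed and 7.83% had an unadjusted p under 0.05. The RBBP4 probes lay on both sides of 0 and were not shown to differ. The direction of RBBP4 is given by probe and not for the gene. RBBP7, the close homolog of RBBP4, had log2 signals of 9.82 and 9.59 in the siSOX4 samples, against 9.61 and 9.50 in the siControl samples. The groups overlapped, and the difference was 0.15 ± 0.17 (limma adjusted p = 0.754). A probe for RBBP4 or RBBP7, or for EZH1 or EZH2, may also bind the homologous transcript.

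JARID2 had the largest difference of the 15 PRC2 probes. This DNA-binding subunit, a catalytically inactive member of the Jumonji family, helps bring PRC2 to its targets and stimulates the enzyme. The probe ILMN_1764177 had raw intensities of 654 and 790 in the siSOX4 samples, against 1501 and 1656 in the siControl samples. On the normalized log2 scale these were 9.30 and 9.53 in the siSOX4 samples, against 10.44 and 10.62 in the siControl samples. Both siSOX4 samples were well below both controls, and the samples of each group lay within 0.23 and 0.17 log2 units of each other for siSOX4 and siControl. The difference was -1.12 ± 0.17, a 2.17-fold lower signal, with a 95% interval from -1.50 to -0.73. Its limma adjusted p of 0.0968 did not pass 0.05, though it was among the 0.298% of kept probes (60 probes) with an adjusted p under 0.10. Taken against the control mean, siSOX4 sample 1 was at -1.233 and siSOX4 sample 2 at -1.0005. The authors' deposited table gave a ratio of 2.15 for siControl over siSOX4. The arrays were of bulk RNA, so fewer cells with the transcript and less of it per cell cannot be told apart. The direction held under the changes of background correction, scaling and source of values, which alone could turn it, but the adjusted p moved. It passed when all 47323 probes were tested (limma adjusted p = 0.0241) and stayed above 0.10 with median scaling (0.110), with probes detected on all 4 arrays (0.131), from the deposited series matrix (0.140) and without a variance trend (0.177). With a control left out, the limma adjusted p was 0.9996 without siControl sample 1 and 0.875 without siControl sample 2.

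AEBP2, the zinc finger protein found with JARID2 in the same form of the complex, had log2 signals of 7.68 and 7.98 in the siSOX4 samples, against 7.55 and 7.56 in the siControl samples. Both siSOX4 samples were above both controls, by 0.12 in sample 1 and 0.42 in sample 2, and the difference of 0.27 ± 0.20 did not pass (limma adjusted p = 0.601). The JARID2 and AEBP2 probes thus lay on opposite sides of the controls, with an AEBP2 interval of -0.18 to 0.73. JARID2 had the largest difference of the PRC2 probes, and the difference between the 2 genes was not tested.

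The Polycomb-like subunits, which bind DNA and methylated histone H3, were higher or unequal between probes. MTF2 read 8.65 and 8.15 in the siSOX4 samples, against 8.01 and 8.04 in the siControl samples. Sample 1 was higher by 0.63 and sample 2 by 0.12, and the difference of 0.38 ± 0.22 did not pass (limma adjusted p = 0.512). PHF19 was measured by 3 probes. Probe ILMN_1713249, annotated to NM_015651, read 10.09 and 8.54 in the siSOX4 samples, against 8.96 and 8.74 in the siControl samples. The signal was highest in siSOX4 sample 1 and lowest in siSOX4 sample 2, at 1.25 and -0.30 from the control mean, and the difference was 0.47 ± 0.43 (limma adjusted p = 0.685).

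The other PHF19 probes are annotated to transcript NM_001009936 and differed less between the siSOX4 samples. Probe ILMN_1756676 read 8.10 and 8.18 in the siSOX4 samples, against 7.90 and 7.89 in the siControl samples, a difference of 0.25 ± 0.18 (limma adjusted p = 0.598). Probe ILMN_1745420 read 7.94 and 8.27 in the siSOX4 samples, against 8.10 and 8.09 in the siControl samples, a difference of 0.01 ± 0.19 whose sign turned with the scaling. The NM_015651 probe was not shown to differ from either of them (limma adjusted p = 0.897 and 0.948).

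**Figure D2:**
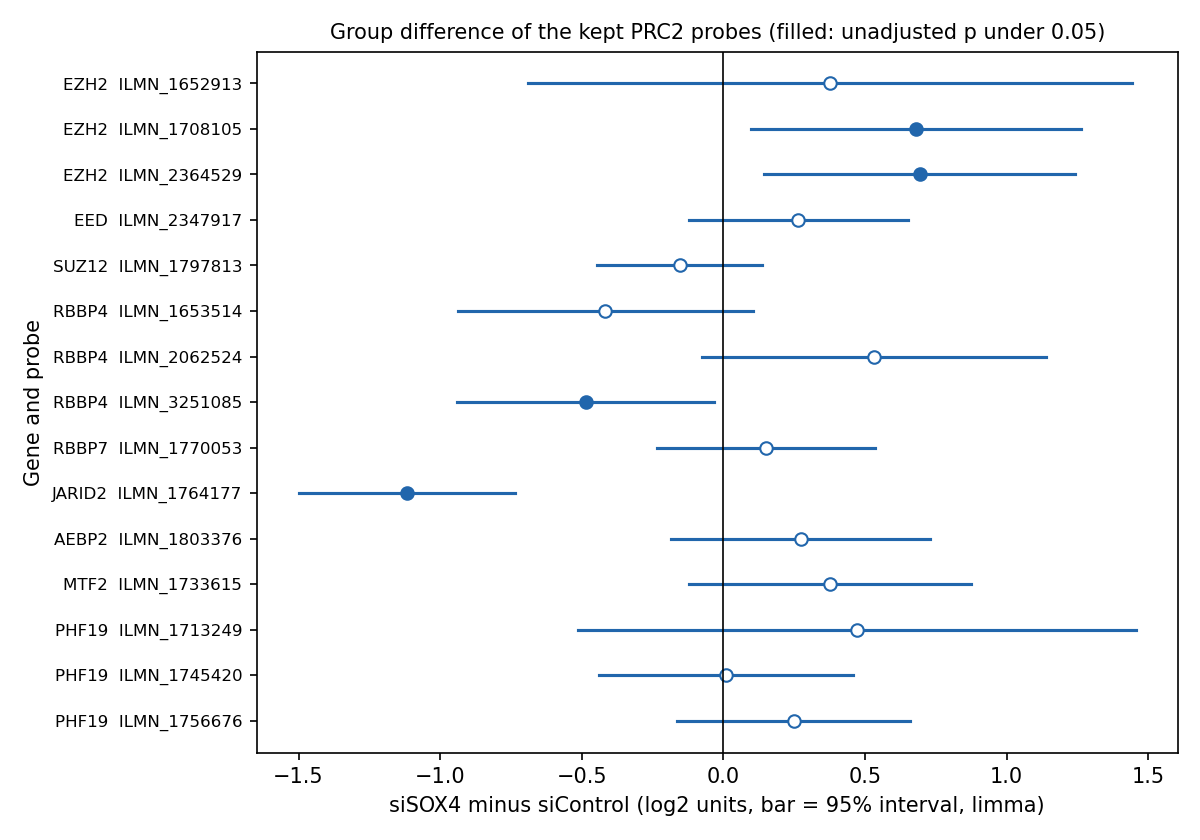
Difference between siSOX4 and siControl for the 15 kept PRC2 probes, in log2 units, with bars for limma's 95% interval and filled points where the unadjusted p is under 0.05. JARID2 has the interval farthest from 0, and the 3 RBBP4 probes lie on both sides of 0.

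The siSOX4 samples differed from each other at these probes. The distance between siSOX4 samples exceeded that between controls in 13 of the 15 probes, against 65.3% of all kept probes. The siSOX4 samples were more than 1 log2 unit apart for 2 of the 15 probes, EZH2 ILMN_1652913 (1.66) and PHF19 ILMN_1713249 (1.55), against 2.94% of all kept probes. The controls were more than 1 log2 unit apart for 0 of the 15 and for 0.114% of all kept probes.

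The genes with profiles nearest to EZH2 and JARID2 were looked up over the 4 arrays, by the Euclidean distance between normalized log2 values centred on each gene's mean, among 11388 other genes. For EZH2 (ILMN_1708105) they were FBXO5, an inhibitor of the anaphase-promoting complex, at a distance of 0.07, then ATP6V1G3, a proton pump subunit detected on neither control array (0.08), and VKORC1L1, a vitamin K epoxide reductase (0.08). The FBXO5 difference was 0.62 ± 0.23 log2 units, made up of 0.96 for siSOX4 sample 1 and 0.27 for siSOX4 sample 2. For JARID2 they were RESF1, known for silencing retroelements, at a distance of 0.08, the scaffold protein gene NBEA (0.12) and the RNA-binding protein gene RBM47 (0.14). RESF1 read 8.95 and 9.19 in the siSOX4 samples, against 10.03 and 10.18 in the siControl samples, a difference of -1.04 ± 0.17 (limma adjusted p = 0.0968).

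Genes of further accessory subunits of PRC2 were read from a second list. Of the 5 listed, 4 were measured, all 4 with both siSOX4 samples above both controls, against 22.7% of genes, and with a median difference of 0.61, beside -0.02 over 11389 genes. At an unadjusted p under 0.05 there were 3 of 4, against 7.44% of genes in that direction, and 0 passed the adjusted threshold (smallest limma adjusted p = 0.197). LCOR, whose locus also encodes the PRC2 subunit PALI1, read 10.01 and 9.23 in the siSOX4 samples, against 8.62 and 8.62 in the siControl samples, a difference of 1.00 ± 0.25. Its other kept probes were higher by 0.85 and, for the one detected on neither control array, at least 1.84-fold (1.37-fold when background was not corrected), and which of the locus's products the probes measure is not known here. EPOP, which links PRC2 to elongin, differed by 0.67 ± 0.22, and PHF1, the remaining Polycomb-like protein, by 0.56 ± 0.17. The other kept PHF1 probes gave 0.47 and, with overlapping groups, 0.09. The remaining measured gene differed by 0.22 ± 0.20. It read 5.28 and 5.41 in siControl samples 1 and 2, where the lowest detected signals were 5.21 and 5.16. Without background correction the list's median was 0.44.

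Genes of PRC1, the complex that ubiquitinates histone H2A and acts with PRC2, lay on both sides of 0. Of 10 measured core and canonical members, 4 were above and 6 below 0, with 0 higher and 2 lower at an unadjusted p under 0.05 (7.39% of genes were lower at that p), and a median of -0.09. These were PHC2, a polyhomeotic protein, at -0.82 ± 0.20 and PCGF2 at -0.44 ± 0.17. PHC2 read 8.14 and 8.53 in the siSOX4 samples, against 9.29 and 9.02 in the siControl samples. Its other kept probe, detected on neither siSOX4 array, was at least 1.14-fold lower (1.07-fold when background was not corrected). Of 11 measured variant PRC1 members, 5 were above and 6 below 0, and the RING finger subunits PCGF5 (0.57 ± 0.20) and PCGF1 (0.51 ± 0.20) had an unadjusted p under 0.05, against 7.44% of genes in that direction. Of the 6 measured genes that remove H3K27 methylation or H2A ubiquitin, or act with those enzymes, 1 was higher and 1 lower at that p, against 7.44% and 7.39% of genes. ASXL1 differed by 0.43 ± 0.18 and FOXK1 by -0.71 ± 0.21. None of the members of these lists passed an adjusted p under 0.05 in limma.

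RBBP4 and RBBP7 also serve in the chromatin assembly factor CAF-1 and the NuRD and SIN3 deacetylase complexes. Of 20 measured genes of those complexes or listed with them, 10 were above and 10 below 0, with a median of 0.05. The 1 gene of 20 with an unadjusted p under 0.05, fewer than the 14.8% of all genes, was BPTF. BPTF belongs to the nucleosome remodelling factor, outside the complexes named, and passed the filter only through the siSOX4 arrays. It was at least 1.81-fold higher in the siSOX4 samples and detected on neither control array, a bound that was 1.36-fold when background was not corrected, and its other kept probe differed by -0.05.

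Most proliferation markers had signals above the control mean. Of 23 measured proliferation markers, 22 were above 0 and 1 below, 17 of them with both siSOX4 samples above both controls, against 22.7% of genes, and the median difference was 0.49. That median was 0.73 for siSOX4 sample 1 and 0.20 for siSOX4 sample 2, where EZH2 (ILMN_1708105) was at 1.03 and 0.32, while the controls differed from each other by 0.06. At an unadjusted p under 0.05 there were 8 markers, all higher, against 7.44% of genes, and 0 passed the adjusted threshold. TYMS, the thymidylate synthase of DNA synthesis, read 11.97 and 11.07 in the siSOX4 samples, against 10.53 and 10.68 in the siControl samples (0.92 ± 0.27, limma adjusted p = 0.244). The mitotic kinase AURKA differed by 0.79 ± 0.30, the G1/S cyclin CCNE1 by 0.76 ± 0.21 and the thymidine kinase TK1 by 0.71 ± 0.23, and a second kept CCNE1 probe gave 0.07. The part of proliferation in the EZH2 difference was not tested.

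The E2F factors and their partners, which regulate such genes, went both ways. Of 18 measured, 9 were above and 9 below 0, with a median of -0.02, and 2 were higher and 1 lower at an unadjusted p under 0.05, against 7.44% and 7.39% of genes. The repressor E2F7 read 9.41 and 9.92 in the siSOX4 samples, against 10.63 and 10.75 in the siControl samples, a difference of -1.02 ± 0.20 (limma adjusted p = 0.138). The activator E2F2 differed by 0.75 ± 0.30, made up of 1.21 for siSOX4 sample 1 and 0.29 for siSOX4 sample 2, and the mitotic factor FOXM1 by 0.43 ± 0.16.

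Genes reported elsewhere as repressed by EZH2 gave no common direction. Of 36 listed, 22 were measured, 9 above and 13 below 0, with a median of -0.13. At an unadjusted p under 0.05 there were 3 higher, against 7.44% of genes, and 1 lower, against 7.39%. The 3 include CIITA, which passed the filter only through the siSOX4 arrays. RAP1GAP, which inactivates the small GTPase Rap1, was the lower gene, with 6.108 and 6.996 in the siSOX4 samples against 8.818 and 8.746 in the siControl samples (-2.23 ± 0.29, limma adjusted p = 0.081). The protease inhibitor TIMP3 differed by 0.76 ± 0.25 and the guidance ligand SLIT2 by 0.62 ± 0.23. CIITA, the regulator of MHC class II genes, was at least 1.18-fold higher (1.09-fold when background was not corrected), with neither control array above background. These arrays measured no H3K27 methylation.

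**Figure D3:**
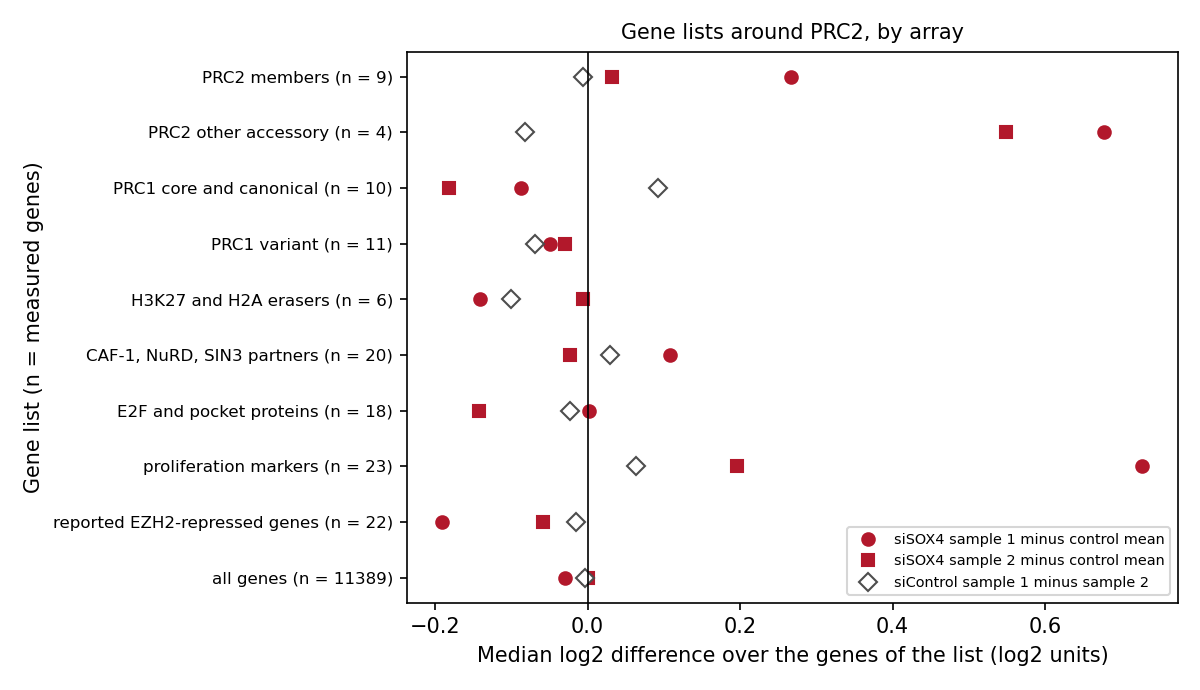
Median log2 difference of the genes of each list, in log2 units, for siSOX4 samples 1 and 2 against the control mean (filled) and for siControl sample 1 minus sample 2 (open). The proliferation markers lie at 0.73 and 0.20 in siSOX4 samples 1 and 2 and the further PRC2 accessory subunits at 0.68 and 0.55, while the core PRC1 list lies at -0.09 and -0.18 and the variant PRC1 list at -0.05 and -0.03.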

How the data were processed

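Total RNA of 2 siSOX4 and 2 siControl samples was biotin-labelled and measured on Illumina BeadChips, per the labels' protocols. The deposited signal table holds a linear intensity and a detection p-value per probe, per the file headers, with no scaling found between arrays (array medians 82.0 and 76.6 for siSOX4 and 82.4 and 78.6 for siControl). The deposited series matrix was found to hold each intensity as a ratio to its array's median, and the authors' fold table holds the ratio of group means, siControl over siSOX4, per the file headers. The scanner software was not given in these sources. Detection columns have no sample names and were tied to arrays by their order against the signal.

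Intensities were background-corrected, quantile-normalized and put on a log2 scale with limma 3.58.1 (neqc, offset 16, negative controls inferred from the detection p-values) in R 4.3.3. The 20118 kept probes were fitted with lmFit and eBayes (trend on, two-sided tests), and p-values were adjusted by Benjamini-Hochberg over all of them, with a threshold of 0.05. Values after ± are limma's standard errors, with n = 2 arrays per group, a number that limits the precision. Genes came from the platform annotation (30113 probes with 1 symbol, 8 with several, 17202 not listed), with a gene of several probes represented in lists by the kept probe with the highest mean, and every member probe given. "At least N-fold" compares the brighter group with the higher of the dim probe and the lowest detected signal on each array. The fit was tested on simulated data. An exact permutation test of 2 against 2 samples was not used, since it cannot pass the threshold.

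The members and lists were chosen with earlier results of these data known. Named are SOX4, all members, up to 4 genes of largest difference per list with an unadjusted p under 0.05 (or the 1 of largest difference), and the 3 nearest profiles of EZH2 and JARID2. Alternatives were the background correction, scaling, source table, detection filter, variance trend, replicate number as a block and each array left out.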

Additional observations from a re-analysis of the deposited data

How the results depend on the processing

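The filters, variance trend and replicate block leave each difference unchanged, and an array left out cannot reverse a probe whose groups do not overlap. For such probes only the background correction, scaling and source of values could turn the direction. Directions of 12 of the 15 PRC2 probes were kept under all 11 alternatives (background correction, scaling, source of values, filters, variance trend, replicate block and each array left out). Exceptions were PHF19 ILMN_1745420 (-0.023 with median scaling and -0.021 from the deposited series matrix, -0.15 to 0.17 with an array left out), EZH2 ILMN_1652913 (-0.45 to 1.20 with an array left out) and PHF19 ILMN_1713249 (-0.30 to 1.25). The number of probes past the threshold was 2 from the series matrix, 105 with no filter (1 PRC2 probe, JARID2), 184 with the replicate block (1 PRC2 probe, JARID2, adjusted p = 0.0236) and 0 to 4220 with an array left out (0 to 7 PRC2 probes). Any array left out leaves 1 group with a single sample, so the spread comes from the other group alone. Over kept probes the SD of the difference between samples was 0.43 for siSOX4 and 0.26 for siControl. The high counts were those without siSOX4 sample 1 or 2, where only the controls give a spread, and their cause was not tested. The PRC2 probes past the threshold were JARID2 and RBBP4 ILMN_3251085 without sample 1, and JARID2, all 3 of EZH2, MTF2, RBBP4 ILMN_2062524 and PHF19 ILMN_1713249 without sample 2. The remaining sample is then taken to vary as the controls do. At an unadjusted p under 0.05 there were 2 PRC2 probes without siControl sample 1 and 1 without siControl sample 2, against 4 with all arrays. Whether same-numbered samples belong together is not stated in the labels (correlation of same-numbered deviations 0.11 across kept probes). The causes of these moves were not tested. The median of the PRC2 probes stayed between 0.12 and 0.27. EZH1 was too close to background for any comparison.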

Other observations

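Other chromatin modifiers were read in the same fit. Of 21 measured histone lysine methyltransferases outside PRC2, 10 were above and 11 below 0 with a median of -0.03, and KMT5B, which methylates histone H4, was the 1 with an unadjusted p under 0.05, where 14.8% of all genes had one (-0.55 ± 0.23, with -0.42 at its other kept probe). DNMT1, the maintenance DNA methyltransferase, read 12.83 and 12.62 log2 units in the siSOX4 samples, against 11.51 and 11.99 in the siControl samples. Both siSOX4 samples were above both controls, and the difference was 0.97 ± 0.18 (limma adjusted p = 0.131). Its partner UHRF1, which guides DNMT1 to replicated DNA, differed by 0.40 ± 0.17, made up of 0.61 for siSOX4 sample 1 and 0.19 for siSOX4 sample 2. Of the 4 measured genes of DNA methylation, 3 were above 0, with a median of 0.36, and 0 passed the adjusted threshold. That median was 0.10 without siSOX4 sample 1 and 0.61 without siSOX4 sample 2.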
